A study of Mus musculus with 8 samples.

Results

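Cholesterol and fatty acid metabolism was described through 52 genes chosen by name for their roles: 18 enzymes of sterol synthesis, 5 regulators and carriers of sterol sensing, 5 enzymes of fatty acid synthesis, 7 desaturases and elongases, 4 proteins of fatty acid uptake, 6 of triglyceride storage, 2 of lipolysis and 5 of mitochondrial β-oxidation. All 52 were among the 54838 genes measured, and all passed the filter on low counts that left 14634 genes for testing. Lpl and Cd36 passed it through the library labelled 3H3P alone, and the other 50 averaged at least 1 CPM (read counts scaled to library size) over the subclones.

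The RNA-seq libraries came from cultured mouse hepatocellular carcinoma cells: 7 subclones of 3H3PM, numbered 1, 2, 3, 6, 7, 8 and 9 with 1 library each, and 1 library labelled 3H3P. All descend from 3H3, a line from a liver tumour of a C57BL/6 mouse that lacked the melanocortin 4 receptor (MC4R-KO) and ate a high-fat diet, and 3H3 carries an Hras mutation. 3H3P is 3H3 with Trp53 knocked out by CRISPR/Cas9. 3H3PM is 3H3P with ectopic MYC, and its subclones were isolated from tumours that these cells formed in nude mice. All cells were grown in DMEM with 10% fetal bovine serum, a source of lipoproteins and fatty acids for every group. MYC expression, growth in a mouse and isolation of a subclone came together in each 3H3PM library and cannot be told apart here.

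Cells make cholesterol from acetyl-CoA through mevalonate, squalene and lanosterol. When sterols are scarce in the endoplasmic reticulum, SREBP2 is released from its anchor and raises transcription of this pathway and of lipoprotein uptake. SREBP1 drives fatty acid synthesis in a similar way. Fatty acids are desaturated, elongated and stored as triglyceride in lipid droplets, or carried into mitochondria by the carnitine shuttle and oxidised. Nuclear receptors of the PPAR family, which sense fatty acids, raise many genes of storage and oxidation. Liver is a main site of all these processes.

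Library totals ran from 12838521 to 17987068 expected counts in the 3H3PM subclones, against 16855985 in the library labelled 3H3P. Between-library correlations of log2 CPM were 0.938 to 0.980 over 21 pairs of subclones and 0.843 to 0.886 over the 7 pairs of a subclone with the library labelled 3H3P. Transcripts of Trp53, the targeted gene, were still counted, at 41.35 to 59.99 TPM (a level per transcript length, scaled to an equal sum in each library) in the subclones and 188.28 TPM in the library labelled 3H3P. Mouse Myc had 2.59 to 9.47 TPM in the subclones and 63.99 TPM in the library labelled 3H3P. This is the reverse of the order the MYC label names. The species and sequence of the transgene are not given, so the label could not be checked with these counts. Of 8 hepatocyte markers, Cps1 was at 0 in all 8 libraries and 4 stayed under 1 TPM in all; their summed level was 56.03 to 163.31 TPM in the subclones and 1257.74 TPM in the library labelled 3H3P, mostly the keratins Krt8 and Krt18. The 6 adipocyte markers summed to 0 to 0.18 TPM in the subclones and 0.06 TPM in the library labelled 3H3P, with Adipoq, Plin1 and Cfd at 0 in all 8. The 5 endothelial markers also stayed under 1 TPM in all 8 libraries, and the 6 macrophage markers summed to 6.2 to 18.29 TPM in the subclones and 8.08 TPM in the library labelled 3H3P.

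Of the 52 lipid genes, 9 passed the test between 3H3PM and 3H3P: Pmvk, Acss2, Acaca and Scd2 were higher in 3H3PM, and Lpl, Plin2, Cpt1a, Acadl and Elovl5 were lower. The test was edgeR's quasi-likelihood test with Benjamini-Hochberg adjustment over all 14634 genes, and a gene was called at an adjusted p under 0.05. The 9 called members are 17.3% of 52, beside 19.1% of all genes tested. By direction, 4 members were higher (7.69%, beside 7.33% of all genes) and 5 were lower (9.62%, beside 11.8% of all genes). Both shares lay near those of all genes. Lpl, counted among the 5 lower members, passed the filter on low counts through the library labelled 3H3P alone. Its call could therefore only be lower. Without subclone 3, 1 member was called higher and 5 lower, and over all genes 669 and 1322. The median log2 fold change was −0.02 over the members and 0.03 over all genes tested. Of all calls over the tested genes, 38.3% were higher in 3H3PM, against 49.3% of the calls that DESeq2 made. On the CPM scale, the library labelled 3H3P fell outside the range of all 7 subclones for 32 members (61.5%, beside 57.4% of all genes). On that scale the subclones were all higher for 16 members (30.8%, beside 27.1% of all genes) and all lower for another 16 (30.8%, beside 30.4%). Some of these members, such as Mvk, lay inside the range in TPM. With a single library labelled 3H3P, the error was estimated over the 7 subclones, and the same error was taken to hold for that library. Each p-value therefore sets the difference against variation from isolate to isolate.

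**Figure D1:**
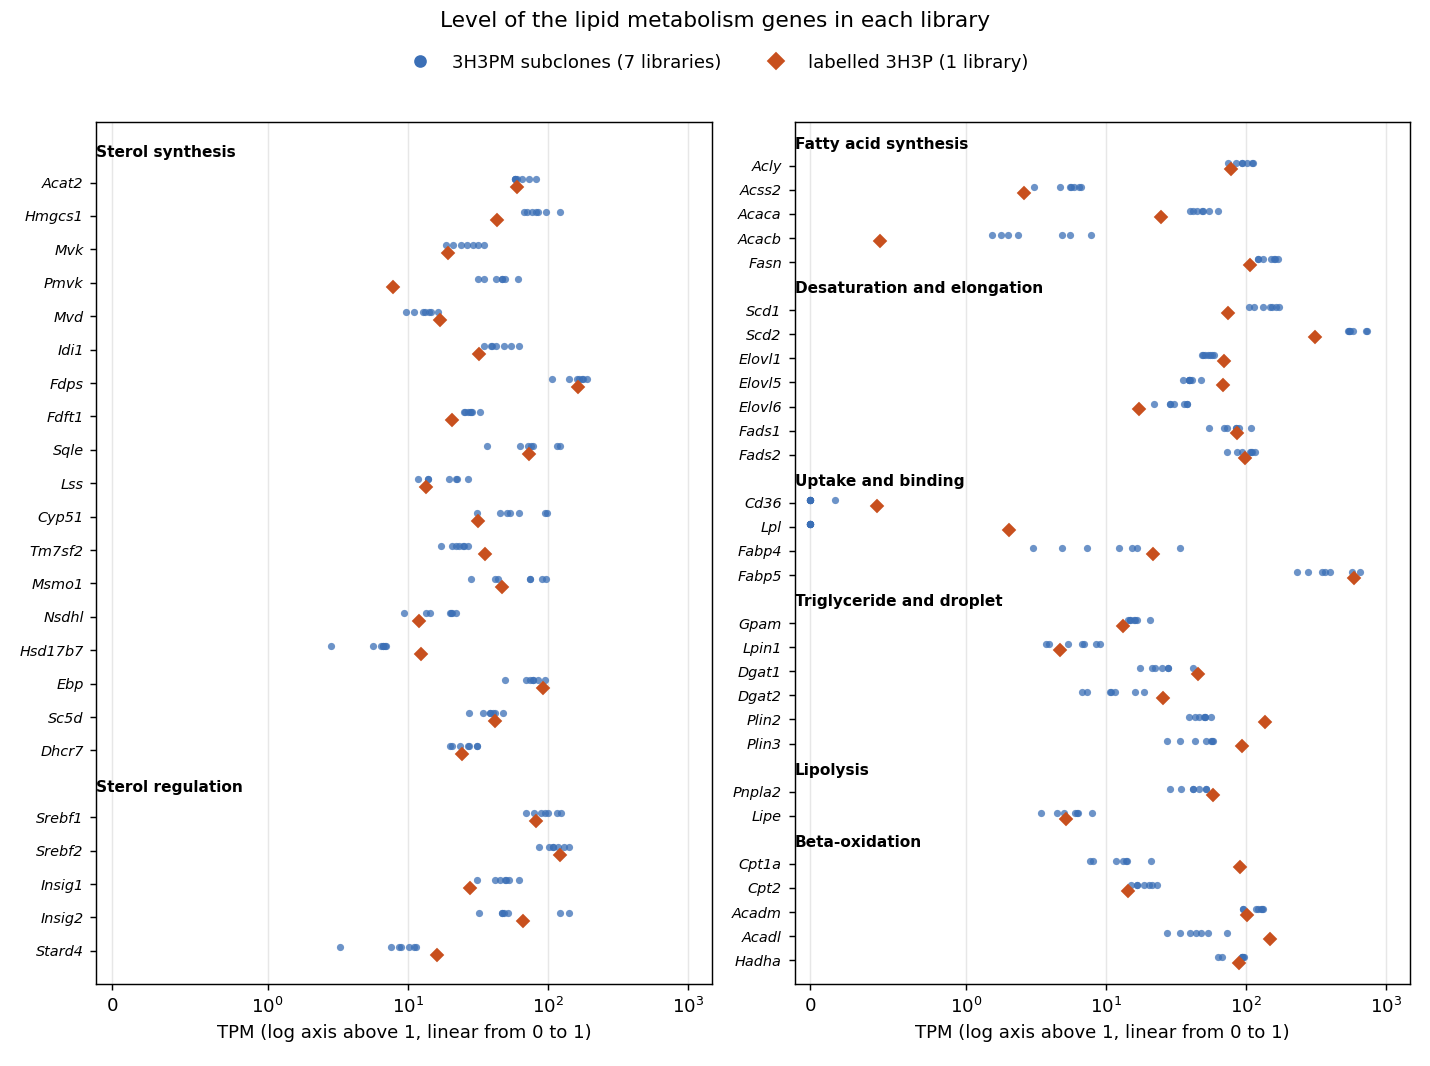
TPM of each of the 52 lipid genes (x axis, logarithmic above 1 and linear below) in the 7 3H3PM subclones (circles) and in the library labelled 3H3P (diamonds, just below them), grouped by role (y axis). Levels run from 0 for Lpl in the subclones to 735.88 TPM for Scd2, and the diamond lies outside the circles for genes such as Pmvk, Plin2 and Cpt1a.

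**Figure D2:**
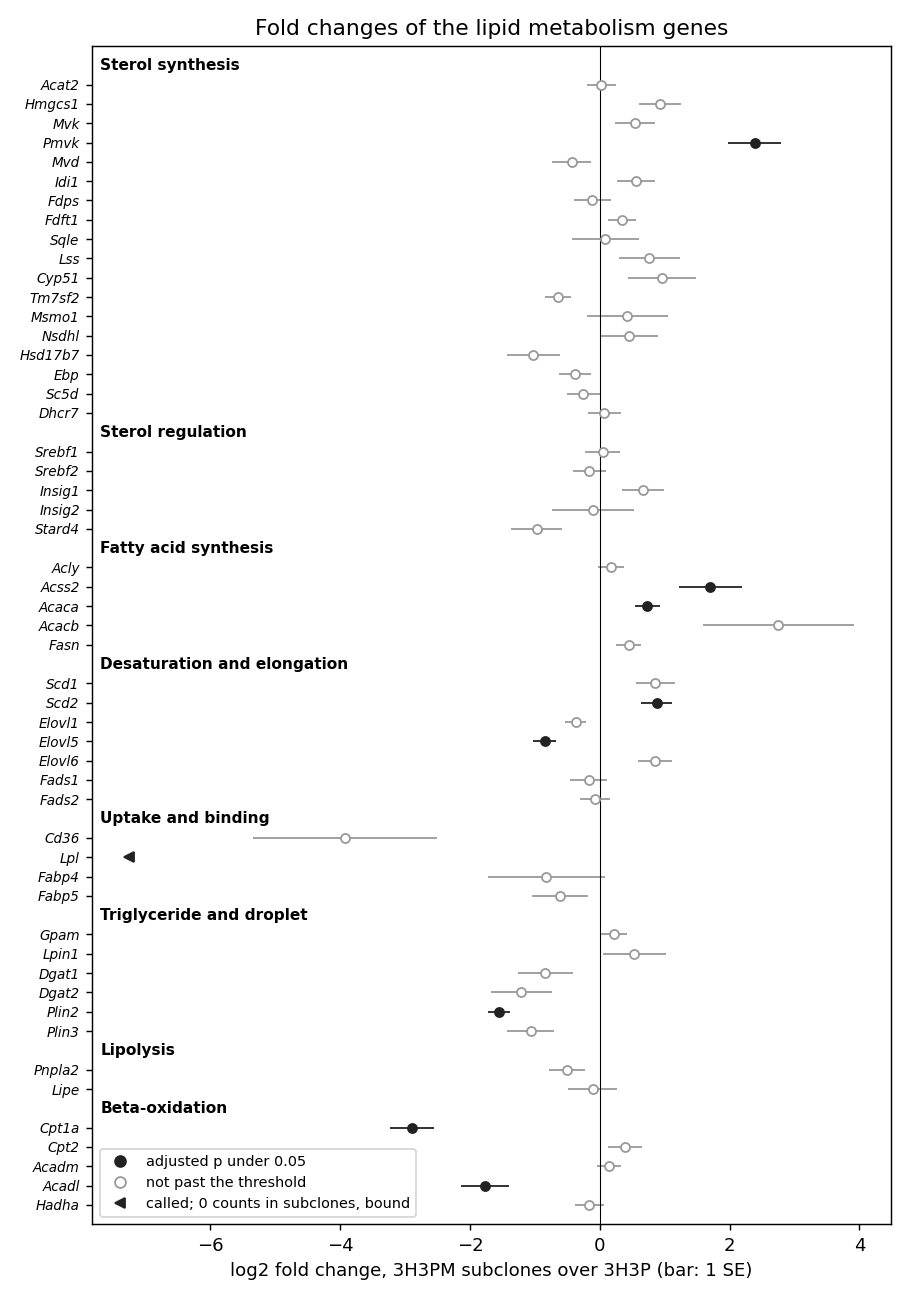
Log2 fold change of each of the 52 lipid genes, 3H3PM over 3H3P, from edgeR (x axis), with 1 standard error to each side as a bar, grouped by role (y axis); filled points passed the test, and Lpl, with 0 counts in the subclones, is drawn at its bound as a triangle. Called genes lie on both sides, with Pmvk, Acss2, Acaca and Scd2 to the right and Lpl, Cpt1a, Acadl, Plin2 and Elovl5 to the left.

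In sterol synthesis 1 of the 18 enzymes rose, none fell, and 17 were not called. The median log2 fold change was 0.21, and 12 of the 18 fitted changes were above 0. Summed over the 18 enzymes, the subclones had 665.29 to 1024.66 TPM (median 921.19) and the library labelled 3H3P had 750.0 TPM, within that range.

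The enzyme that rose was Pmvk, phosphomevalonate kinase, which adds the second phosphate of the mevalonate pathway (chr3:89454541-89469013, plus strand, GRCm38). Pmvk had 31.8 to 61.17 TPM in the subclones, with a median of 46.98, against 7.90 TPM in the library labelled 3H3P. Every subclone lay above it, and the groups did not overlap. The fold was 5.23 (log2 fold change 2.39, SE 0.41, adjusted p = 0.00507 by edgeR's quasi-likelihood test), and Pmvk passed in all 16 alternative analyses. The kinases and decarboxylase beside it in the pathway did not pass. Mvk, mevalonate kinase, had 18.84 to 35.28 TPM in the subclones and 19.34 TPM in the library labelled 3H3P. Mvd, the mevalonate diphosphate decarboxylase, had 9.77 to 16.56 TPM in the subclones and 16.94 TPM in the library labelled 3H3P.

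Hmgcs1, the cytosolic HMG-CoA synthase that feeds the pathway and a well-known SREBP2 target, came closest to the threshold on the high side of this group. It had 67.84 to 123.12 TPM in the subclones (median 82.17) and 43.73 TPM in the library labelled 3H3P, again with no overlap. Its log2 fold change was 0.93 (SE 0.33), with an adjusted p of 0.0757 by edgeR's quasi-likelihood test. DESeq2 gave it an adjusted p of 0.0296. Acat2, the thiolase of the first step, had 58.03 to 82.08 TPM in the subclones and 60.72 TPM in the library labelled 3H3P, inside their range.

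The isoprenoid and squalene steps overlapped or lay close between the groups. Fdps, the farnesyl diphosphate synthase, had the highest mean TPM of the sterol enzymes, 107.48 to 190.25 TPM in the subclones (median 167.54) and 164.03 TPM in the library labelled 3H3P. Its log2 fold change was −0.11 (SE 0.28), with an adjusted p of 0.811 by edgeR's quasi-likelihood test. Idi1, the isopentenyl diphosphate isomerase, had 34.90 to 62.76 TPM in the subclones and 32.17 TPM in the library labelled 3H3P. Fdft1, squalene synthase, had 25.12 to 32.85 TPM in the subclones and 20.76 TPM in the library labelled 3H3P; for both genes the subclones lay just above. Sqle, squalene epoxidase, spanned 36.67 to 123.16 TPM in the subclones, around the 73.02 TPM of the library labelled 3H3P.

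Among the enzymes that make lanosterol and turn it into cholesterol, those with positive and negative fitted changes were mixed. Lss (lanosterol synthase, which closes the sterol rings), Cyp51 (lanosterol demethylase), Msmo1 and Nsdhl (demethylation at carbon 4) and Dhcr7 (the last reduction) had log2 fold changes of 0.76, 0.96, 0.42, 0.45 and 0.07, none called. Tm7sf2 (a sterol reductase), Hsd17b7 (a ketosteroid reductase), Ebp (the sterol isomerase) and Sc5d (the sterol desaturase) had −0.64, −1.02, −0.38 and −0.25, also none called. Tm7sf2 had the smallest p of the 17 enzymes that were not called. It had 17.37 to 26.83 TPM in the subclones (median 23.22) and 35.89 TPM in the library labelled 3H3P, above all 7, with an adjusted p of 0.0549 by edgeR's quasi-likelihood test, and it was called lower in 4 of the alternatives. Hsd17b7 had 2.84 to 6.99 TPM in the subclones and 12.47 TPM in the library labelled 3H3P, also above all 7.

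**Figure D3:**
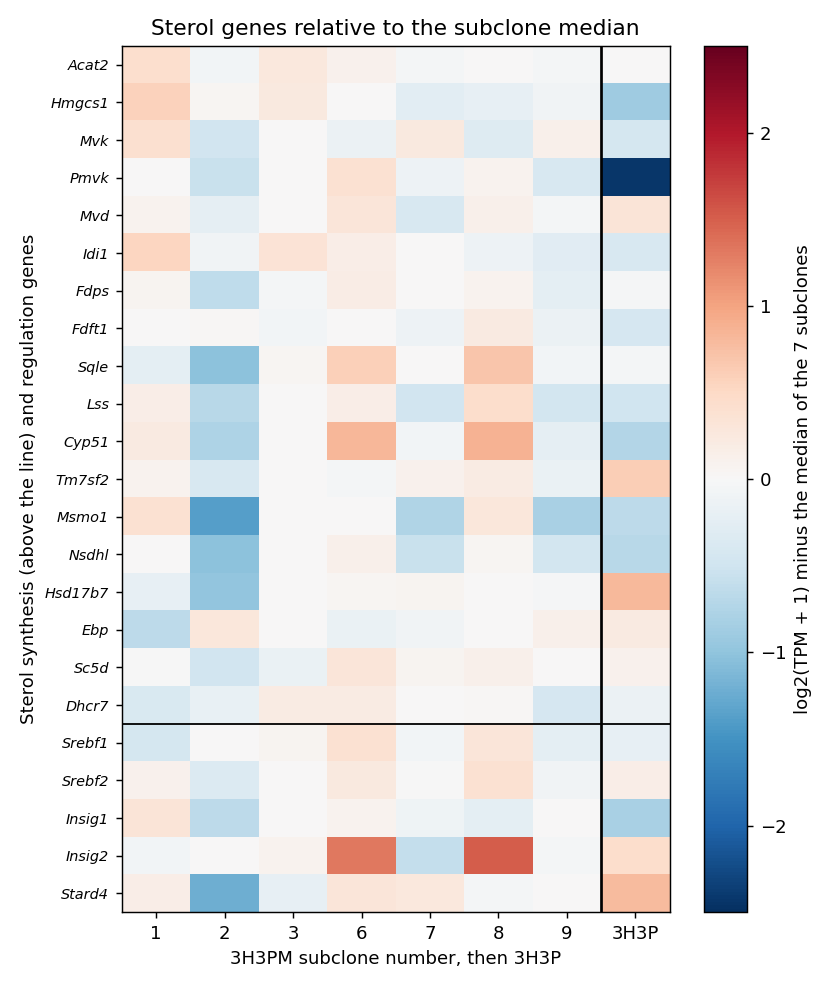
Log2(TPM + 1) of the sterol synthesis enzymes and of the regulators (rows) as a colour, each centred on its median over the 7 subclones, in subclones 1, 2, 3, 6, 7, 8 and 9 and in the library labelled 3H3P (columns). Pmvk is low in the library labelled 3H3P, and subclone 2 holds the lowest value among the subclones for 12 of the 18 enzymes.

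The promoters of Hmgcs1 and Pmvk are shown because Hmgcs1 is a textbook sterol-regulated gene and Pmvk is the enzyme that rose. Both are RefSeq windows on GRCm38.p6, 250 bases before to 50 after the start, 5′ to 3′ on the gene's strand (plus for both): Hmgcs1 at chr13:119690101-119690400 and the first of the Pmvk windows at chr3:89454291-89454590. Capitals mark, on either strand, the sterol response element TCACNCCAC, the E-box CACGTG bound by MYC and other basic helix-loop-helix factors, the NF-Y box CCAAT, the Sp1 box GGGCGG and the nuclear receptor site AGGTCA; no matches overlapped.
Hmgcs1: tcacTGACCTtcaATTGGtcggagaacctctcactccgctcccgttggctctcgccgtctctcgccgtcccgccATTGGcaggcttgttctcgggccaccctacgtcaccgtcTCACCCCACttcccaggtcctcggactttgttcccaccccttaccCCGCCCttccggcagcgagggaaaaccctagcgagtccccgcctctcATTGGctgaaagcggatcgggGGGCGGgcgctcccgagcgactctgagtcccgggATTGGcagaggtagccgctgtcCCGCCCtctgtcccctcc
Pmvk: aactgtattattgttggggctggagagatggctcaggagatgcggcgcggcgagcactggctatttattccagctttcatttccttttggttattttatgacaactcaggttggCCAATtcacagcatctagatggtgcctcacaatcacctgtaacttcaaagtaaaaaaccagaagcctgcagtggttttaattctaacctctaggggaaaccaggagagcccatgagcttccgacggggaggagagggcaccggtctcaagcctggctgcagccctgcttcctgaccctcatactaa

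Counted from the 5′ end, the Hmgcs1 window held a sterol response element at base 114 and NF-Y boxes at bases 14, 75, 206 and 261, with Sp1 boxes at bases 159, 227 and 283 and a nuclear receptor site at base 5. The Pmvk window shown held an NF-Y box at base 115 as its one match. The other Pmvk window, at chr3:89459321-89459620 and not shown, held no match of these motifs. RefSeq windows were found for 40 members, 50 windows in all. The sterol response element matched 1 of the 50 (2.0%), that of Hmgcs1, and 1.24% of all 32851 windows. E-boxes matched 14.0% of member windows and 7.15% of all windows. NF-Y boxes matched 60.0% and 37.4%, Sp1 boxes 72.0% and 35.7%, and the receptor site 30.0% and 16.3%. A match is a description of the letters and not a binding site.

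No regulator of sterol sensing passed the test: 0 of 5 rose and 0 fell, with a median log2 fold change of −0.11. Srebf2, which encodes SREBP2, had the highest mean level of the group, 86.22 to 142.77 TPM in the subclones (median 109.17) and 122.50 TPM in the library labelled 3H3P, inside their range. Srebf1, which encodes SREBP1, had 69.92 to 123.82 TPM in the subclones and 81.95 TPM in the library labelled 3H3P, also inside. These are transcript levels, and SREBPs are controlled largely by cleavage of the protein, which RNA-seq does not measure.

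Insig1 and Insig2 encode anchors that hold the SREBP complex in the endoplasmic reticulum. Insig1 had 31.32 to 62.28 TPM in the subclones, all above the 27.80 TPM of the library labelled 3H3P (log2 fold change 0.67, SE 0.32). Insig2 divided the subclones: it had 123.13 TPM in subclone 6 and 142.14 TPM in subclone 8, 32.03 to 51.69 TPM in the other 5, and 66.43 TPM in the library labelled 3H3P. Stard4, a carrier of cholesterol between membranes, had the smallest p of the group. It had 3.31 to 11.40 TPM in the subclones (median 8.99) and 16.26 TPM in the library labelled 3H3P, above all 7, with a log2 fold change of −0.97, an SE of 0.40 and an adjusted p of 0.117 by edgeR's quasi-likelihood test. Without subclone 2, where Stard4 was lowest, its adjusted p was 0.0281.

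Fatty acid synthesis was the group in which all fitted changes were positive, with a median log2 fold change of 0.73. Of its 5 enzymes 2 rose, beside 7.33% of all genes tested, and none fell. Neither call held without subclone 3, and that of Acss2 was lost in 9 of 16 alternatives. The 5 enzymes summed to 250.93 to 344.22 TPM in the subclones (median 306.87) and 214.3 TPM in the library labelled 3H3P, below all 7.

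Acaca, acetyl-CoA carboxylase 1, makes malonyl-CoA and is the committed step of the pathway (chr11:84129672-84401651, plus strand). It had 40.10 to 62.86 TPM in the subclones (median 48.61) and 24.67 TPM in the library labelled 3H3P. Every subclone was higher, by a fold of 1.66 (log2 fold change 0.73, SE 0.19, adjusted p = 0.0266 by edgeR's quasi-likelihood test). Without subclone 3 its adjusted p was 0.0526. Fasn, fatty acid synthase, was the most abundant of the group, with 121.82 to 169.21 TPM in the subclones (median 152.28) and 107.76 TPM in the library labelled 3H3P. All subclones lay above it, yet its log2 fold change of 0.45 (SE 0.19) was not called (adjusted p = 0.131 by edgeR's quasi-likelihood test). Acly, which makes cytosolic acetyl-CoA from citrate, had 75.23 to 111.74 TPM in the subclones and 78.80 TPM in the library labelled 3H3P, and the groups overlapped.

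Acacb, acetyl-CoA carboxylase 2, makes the malonyl-CoA that holds back fatty acid entry into mitochondria. It was low in all libraries, with 7.85, 5.59 and 4.91 TPM in subclones 1, 2 and 3, 1.53 to 2.37 TPM in subclones 6 to 9, and 0.45 TPM in the library labelled 3H3P. Every subclone lay above, but they differed among themselves by a fold of up to 5.13, and the log2 fold change of 2.75 had an SE of 1.17 (adjusted p = 0.130 by edgeR's quasi-likelihood test).

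Acss2, the acetyl-CoA synthetase that lets cytosol and nucleus use acetate, rose on the scale of counts (chr2:155517948-155585724, plus strand). It had 10.4, 10.7, 11.8, 13.0, 7.49, 10.7 and 5.68 CPM in subclones 1, 2, 3, 6, 7, 8 and 9, and 3.05 CPM in the library labelled 3H3P. The log2 fold change was 1.71 (SE 0.49), a fold of 3.26, with an adjusted p of 0.0396 by edgeR's quasi-likelihood test. Per transcript length the groups lay closer, at 3.10 to 6.71 TPM (median 5.62) in the subclones and 2.62 TPM in the library labelled 3H3P. RSEM's weighted transcript length of Acss2 was 2582.87 to 2963.54 bases in the subclones and 1826.71 bases in the library labelled 3H3P. The latter is an estimate from 49 counts in 1 library, so a difference in transcripts between the groups is uncertain. A length difference this far from 0 was seen in 129 of 12151 genes (1.06%), not matched for counts. Among the 50 lipid genes examined it was seen in Acss2 alone. The call was lost in 9 of 16 alternatives, and on log2(TPM + 1) the difference was 0.81 with an adjusted p of 0.141 by limma.

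**Figure D4:**
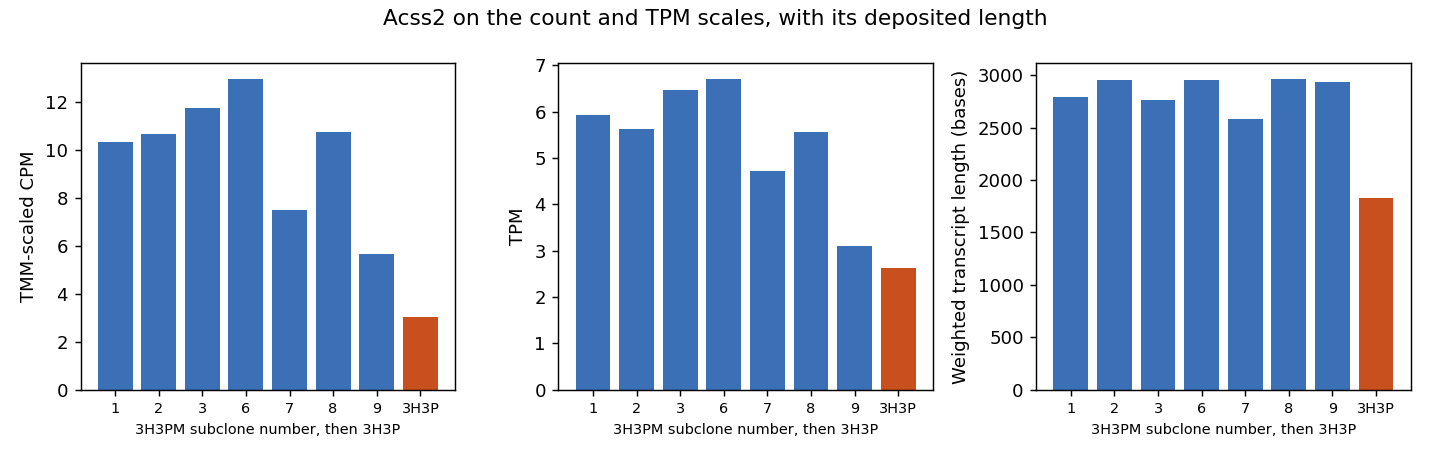
Acss2 in each library as TMM-scaled CPM, TPM and RSEM weighted transcript length in bases (panels), with the 7 subclones left of the library labelled 3H3P. All 3 measures are lowest in the library labelled 3H3P, and the gap is smaller in TPM than in CPM.

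Desaturases and elongases moved in both directions: of 7, Scd2 rose, Elovl5 fell and 5 were not called. The stearoyl-CoA desaturases place the first double bond in saturated fatty acids. Scd2 (chr19:44293674-44306864, plus strand) had the highest mean TPM of the 52 genes over the subclones, with 538.66 to 735.88 TPM in the subclones (median 556.25) and 313.46 TPM in the library labelled 3H3P. All subclones were higher, by a fold of 1.83 (log2 fold change 0.87, SE 0.24, adjusted p = 0.0331 by edgeR's quasi-likelihood test). Without subclone 3 its adjusted p was 0.0553. Its neighbour and paralog Scd1 (chr19:44394455-44407879, minus strand) had 104.78 to 172.36 TPM in the subclones and 74.36 TPM in the library labelled 3H3P, a similar fold of 1.81 that was not called (adjusted p = 0.0747 by edgeR's quasi-likelihood test). The counts of these paralogs rest on how RSEM divided reads that match both.

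Elovl6, which extends saturated fatty acids, and Elovl5, which extends polyunsaturated ones, lay on opposite sides. Elovl6 had 21.98 to 38.03 TPM in the subclones (median 30.64) and 17.22 TPM in the library labelled 3H3P, with a log2 fold change of 0.85 (SE 0.26) that just missed the threshold (adjusted p = 0.0527 by edgeR's quasi-likelihood test). Elovl5 (chr9:77917364-77984519, plus strand) had 35.64 to 47.62 TPM in the subclones (median 39.47) and 69.12 TPM in the library labelled 3H3P. It was lower in 7 of 7 subclones, by 1.80-fold (log2 fold change −0.85, SE 0.17, adjusted p = 0.0107 by edgeR's quasi-likelihood test), and passed in all 16 alternatives. Fads1 and Fads2, the desaturases that act with Elovl5 on polyunsaturated fatty acids, did not follow it: Fads1 had 54.91 to 109.00 TPM in the subclones and 86.63 TPM in the library labelled 3H3P, and Fads2 had 73.75 to 116.77 TPM in the subclones and 99.02 TPM in the library labelled 3H3P. Elovl1, which makes very long saturated chains, had 48.53 to 59.65 TPM in the subclones and 70.13 TPM in the library labelled 3H3P, with a log2 fold change of −0.37 that was not called.

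Fatty acid uptake genes were low or scattered, and 1 of 4 fell. Lpl, lipoprotein lipase, which releases fatty acids from circulating lipoproteins (chr8:68880491-68907448, plus strand), had 0 counts in every subclone and 69 counts, 2.03 TPM, in the library labelled 3H3P. With a floor of 3 counts over the 7 subclones, it was at least 153-fold lower in 3H3PM (adjusted p = 0.0176 by edgeR's quasi-likelihood test). Lpl passed the filter on low counts through the library labelled 3H3P alone, so its call could only be lower. Cd36, a fatty acid transporter of the cell surface, had 4 counts over all subclones and 11 in the library labelled 3H3P. Its level was 18.3 times higher in the library labelled 3H3P than in 3H3PM on the CPM scale (95% exact interval 5.42 to 78.7, counting error only), and it was not called (adjusted p = 0.0826 by edgeR's quasi-likelihood test). In bulk cultures fewer cells that express a gene and less RNA per cell cannot be told apart. Lpl, Cd36 and Fabp4 also mark adipocytes. The adipocyte markers Adipoq and Plin1 were at 0 in all 8 libraries, and the part of such cells in these results was not tested.

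Fabp5 and Fabp4 encode carriers of fatty acids in the cytosol. Fabp5, the most abundant of the group, had 230.35 to 649.63 TPM in the subclones (median 370.27) and 593.44 TPM in the library labelled 3H3P, inside their range, with a log2 fold change of −0.61 (SE 0.43). Fabp4 varied more among the subclones than any other member at a mean CPM of at least 1, from 3.04 to 33.72 TPM around a median of 12.34, and had 21.59 TPM in the library labelled 3H3P.

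Of the 6 triglyceride and droplet genes Plin2 fell, none rose and 5 were not called. The median log2 fold change of the group was −0.95. Summed, the 6 genes had 139.67 to 193.15 TPM in the subclones (median 156.65) and 318.82 TPM in the library labelled 3H3P, above all 7. Plin2, perilipin 2, coats lipid droplets in most cell types and rises with droplet load (chr4:86648386-86670060, minus strand). It had 39.08 to 56.47 TPM in the subclones (median 50.53) and 136.08 TPM in the library labelled 3H3P, with no overlap. It was lower by 2.94-fold (log2 fold change −1.55, SE 0.17, adjusted p = 0.000607 by edgeR's quasi-likelihood test) and passed in all 16 alternatives.

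Dgat1 and Dgat2 carry out the last step of triglyceride synthesis. Dgat1 had 17.63 to 42.12 TPM in the subclones (median 25.22) and 45.24 TPM in the library labelled 3H3P. Dgat2 had 6.72 to 18.80 TPM in the subclones (median 10.87) and 25.66 TPM in the library labelled 3H3P. Both were below the library labelled 3H3P in all 7 subclones and not called, with adjusted p of 0.201 and 0.102 by edgeR's quasi-likelihood test. In subclone 8 both were at their highest among the subclones, and without it their adjusted p were 0.0381 and 0.0446. Plin3, another droplet coat protein, had 27.32 to 57.94 TPM in the subclones and 93.81 TPM in the library labelled 3H3P (log2 fold change −1.06, SE 0.36, adjusted p = 0.0685 by edgeR's quasi-likelihood test). Gpam, the acyltransferase of the first step, had 14.43 to 20.65 TPM in the subclones and 13.29 TPM in the library labelled 3H3P, and Lpin1, a phosphatidate phosphatase, had 3.77 to 9.17 TPM in the subclones and 4.74 TPM in the library labelled 3H3P; neither was called.

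The lipases that break triglyceride down did not pass. Pnpla2, adipose triglyceride lipase, had 28.71 to 52.39 TPM in the subclones (median 42.33) and 57.94 TPM in the library labelled 3H3P, and its log2 fold change was −0.50, with an SE of 0.28 and an adjusted p of 0.243 by edgeR's quasi-likelihood test. Lipe, hormone-sensitive lipase, had 3.46 to 8.02 TPM in the subclones and 5.24 TPM in the library labelled 3H3P, inside their range.

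In mitochondrial β-oxidation the entry enzyme and the long-chain dehydrogenase fell, and the other 3 genes were close to even. Cpt1a, carnitine palmitoyltransferase 1A, controls entry of long-chain fatty acids into mitochondria and is the liver form of the enzyme (chr19:3322334-3385733, plus strand). It had 7.67 to 20.96 TPM in the subclones (median 13.35) and 90.30 TPM in the library labelled 3H3P, and the groups were far from overlapping. It was lower by 7.41-fold (log2 fold change −2.89, SE 0.34, adjusted p = 0.000904 by edgeR's quasi-likelihood test) and passed in all 16 alternatives. Acadl, the long-chain acyl-CoA dehydrogenase (chr1:66830839-66863277, minus strand), had 27.33 to 73.06 TPM in the subclones (median 44.10) and 148.33 TPM in the library labelled 3H3P. It was lower by 3.41-fold (log2 fold change −1.77, SE 0.37, adjusted p = 0.0114 by edgeR's quasi-likelihood test), also in all 16 alternatives.

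The rest of the β-oxidation group did not move with them. Acadm, the medium-chain dehydrogenase, which had the highest mean TPM of the group over the subclones, had 95.73 to 131.64 TPM in the subclones (median 123.20) and 101.65 TPM in the library labelled 3H3P (log2 fold change 0.14, SE 0.18). Hadha, a subunit of the trifunctional protein, had 63.59 to 97.72 TPM in the subclones and 89.20 TPM in the library labelled 3H3P. Cpt2, the partner of Cpt1a inside mitochondria, had 15.11 to 23.13 TPM in the subclones and 14.35 TPM in the library labelled 3H3P (log2 fold change 0.39, SE 0.27, not called). The summed level of the hepatocyte markers, mostly the keratins Krt8 and Krt18, was also lower in 3H3PM. Its part in these results was not tested.

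**Figure D5:**
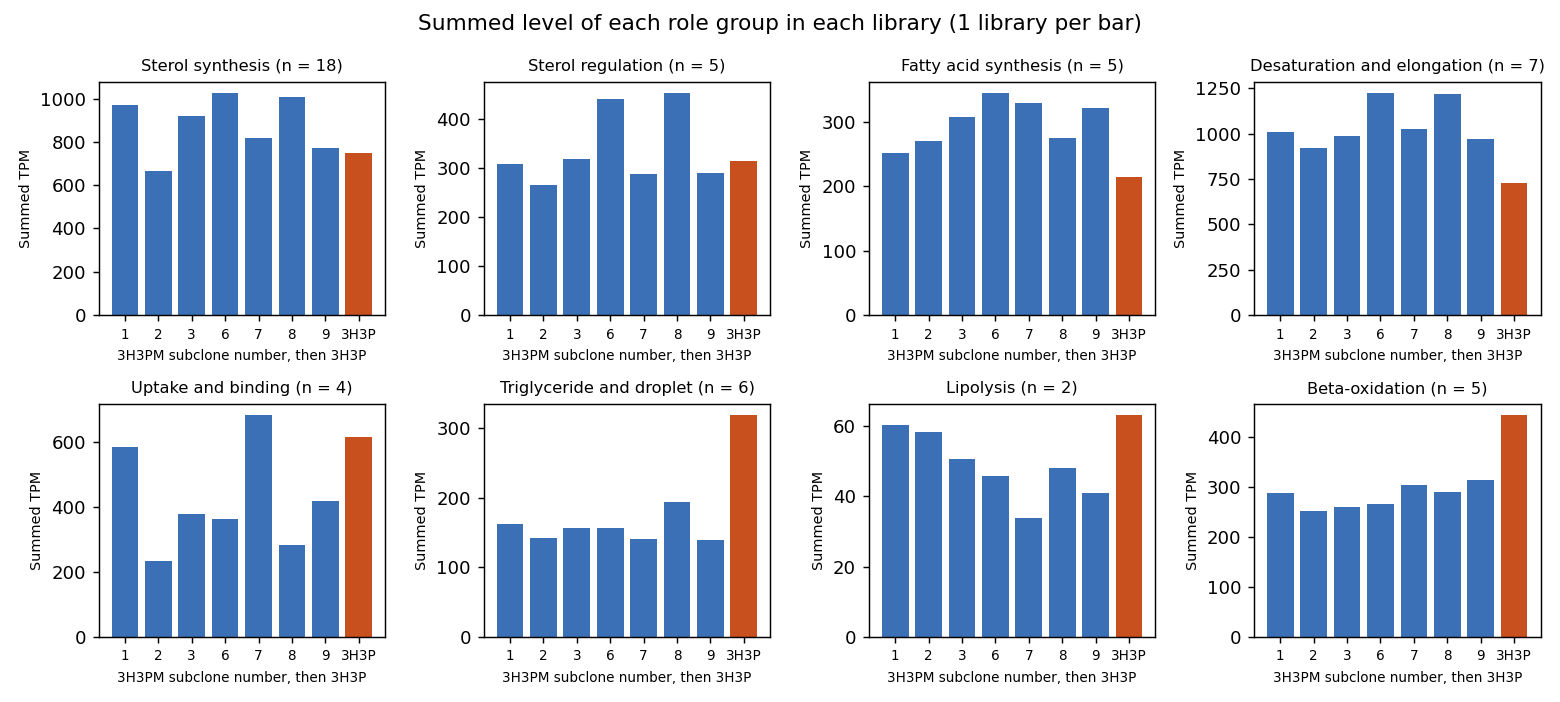
Summed TPM of each role group (panels) in subclones 1, 2, 3, 6, 7, 8 and 9 and, at the right, in the library labelled 3H3P, with 1 bar per library and no error bars. The library labelled 3H3P lies below all subclones for fatty acid synthesis and for desaturation and elongation, and above all of them for triglyceride and droplet genes, lipolysis and β-oxidation. Scd2 is the largest part of the desaturation and elongation sum, and 4 of the 7 fitted changes in that group were below 0.

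The promoters of the droplet coat Plin2 and of Cpt1a and Acadl are shown because these are the droplet coat and the oxidation enzymes that fell. The windows, on GRCm38.p6 from RefSeq, are chr4:86670010-86670309 on the minus strand for Plin2, chr19:3323051-3323350 on the plus strand for Cpt1a and chr1:66863260-66863559 on the minus strand for Acadl. Each reads 5′ to 3′ on the gene's strand, with the same motifs in capitals.
Plin2: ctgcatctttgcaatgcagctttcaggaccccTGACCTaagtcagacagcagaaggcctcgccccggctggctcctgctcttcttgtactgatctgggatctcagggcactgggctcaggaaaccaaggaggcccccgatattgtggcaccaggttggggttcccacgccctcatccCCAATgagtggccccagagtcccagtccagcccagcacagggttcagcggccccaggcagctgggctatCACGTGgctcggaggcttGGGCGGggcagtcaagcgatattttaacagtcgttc
Cpt1a: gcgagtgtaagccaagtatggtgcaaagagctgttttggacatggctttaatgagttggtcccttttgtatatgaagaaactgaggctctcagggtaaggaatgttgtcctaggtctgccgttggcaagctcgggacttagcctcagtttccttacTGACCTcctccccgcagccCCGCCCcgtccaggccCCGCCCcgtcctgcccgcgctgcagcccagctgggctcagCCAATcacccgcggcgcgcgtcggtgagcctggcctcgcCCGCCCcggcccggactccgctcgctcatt
Acadl: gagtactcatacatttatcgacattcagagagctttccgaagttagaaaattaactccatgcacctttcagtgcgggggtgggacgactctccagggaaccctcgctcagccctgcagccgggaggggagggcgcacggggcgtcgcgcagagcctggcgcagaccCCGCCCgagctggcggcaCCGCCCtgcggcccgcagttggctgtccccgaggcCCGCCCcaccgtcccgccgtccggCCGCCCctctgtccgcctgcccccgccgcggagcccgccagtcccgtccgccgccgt

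Plin2 and Cpt1a each held a nuclear receptor site, at bases 33 and 157, and an NF-Y box, at bases 178 and 232. Plin2 also held an E-box at base 247 and an Sp1 box at base 265, and Cpt1a held Sp1 boxes at bases 176, 192 and 271. Acadl held 4 Sp1 boxes, at bases 167, 185, 220 and 244, and no nuclear receptor site in this window.

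In the main analysis, genes of the same pathways outside the 52 were called lower in 3H3PM more often than all genes tested. Of 79 such genes, 65 were tested, of which 2 were higher (3.08%, beside 7.33% of all genes) and 15 lower (23.1%, beside 11.8% of all genes). The 15 include Cideb, which passed the filter on low counts through the library labelled 3H3P alone. Without subclone 3, 8 of the 65 were called lower, beside 1322 of 14455 over all genes. In fatty acid oxidation and ketone metabolism, 6 of 20 tested genes were lower (30.0%) and 1 was higher (5.0%). Etfb, which passes electrons from the acyl-CoA dehydrogenases, had 86.25 to 129.81 TPM in the subclones and 183.74 TPM in the library labelled 3H3P (log2 fold change −0.85). Crat and Etfa were also called lower, and the call was lost in 4 alternatives for Crat and in 8 for Etfa. So were the PPAR family member Pparg and the coactivator Ppargc1a, chosen for naming after their values were seen. Pparg had 0.48 to 5.12 TPM in the subclones and 18.05 TPM in the library labelled 3H3P, and Ppargc1a had 0.01 to 2.48 TPM in the subclones and 11.18 TPM in the library labelled 3H3P. Pparg lost its call on log2(TPM + 0.1), with an adjusted p of 0.0976 by limma, and Ppargc1a lost it in 7 alternatives.

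Among other sterol genes, 3 of 14 tested were lower (21.4%, beside 11.8% of all genes) and none was higher. Lipa, the lysosomal acid lipase, had 19.16 to 26.91 TPM in the subclones and 69.43 TPM in the library labelled 3H3P (log2 fold change −1.74, adjusted p = 0.000365 by edgeR's quasi-likelihood test). Nr1h3, which encodes the oxysterol receptor LXRα, had 8.73 to 15.89 TPM in the subclones and 28.97 TPM in the library labelled 3H3P (log2 fold change −1.45, adjusted p = 0.00922 by edgeR's quasi-likelihood test). The other was Npc1, the lysosomal cholesterol transporter, whose call was lost in 6 alternatives. In the lipogenesis list 3 of 14 tested genes were lower (21.4%) and 1 was higher (7.14%, beside 7.33% of all genes). Me1, malic enzyme, a source of NADPH for synthesis, had 49.69 to 72.98 TPM in the subclones and 167.90 TPM in the library labelled 3H3P. Acsl1, a long-chain acyl-CoA synthetase, had 9.07 to 14.32 TPM in the subclones and 26.67 TPM in the library labelled 3H3P, and Acsl4, of the same family, was also lower, with its call lost in 3 alternatives. Mlxipl, which encodes the glucose-sensing factor ChREBP, had 1.35 to 5.92 TPM in the subclones and 0.34 TPM in the library labelled 3H3P, where it rested on 6 counts; its call (adjusted p = 0.0410 by edgeR's quasi-likelihood test) was lost in 7 alternatives. Of 13 tested triglyceride genes, Agpat3, Cideb and Plin4 were lower (23.1%) and none higher, and of 4 tested uptake genes none was called. Agpat3, an acyltransferase of phospholipid and triglyceride synthesis, had 32.59 to 57.31 TPM in the subclones and 69.74 TPM in the library labelled 3H3P; its call was lost on both TPM scales. Cideb, a droplet and lipoprotein assembly protein, had 10 counts over the subclones and 22 in the library labelled 3H3P. It averaged 0.098 CPM in the subclones against 1.37 CPM in that library, through which alone it passed the filter on low counts. Its call, which could only be lower, was lost in 3 alternatives. The call of Plin4 was lost in 4.

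The 7 subclones varied in lipid genes about as much as in other genes. The median SD of log2 CPM over the subclones was 0.30 for the 50 members with a mean of at least 1 CPM and 0.28 for all 12151 such genes. An SD over 1 was seen in 2 of those members (4.0%) and in 6.70% of all such genes. The 5 most variable members were Fabp4, Acacb, Msmo1, Insig2 and Sqle, with SDs of 1.10, 1.03, 0.71, 0.69 and 0.59.

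Some subclones kept a rank across many members. Subclone 2 was lowest of the 7 for 12 of the 18 sterol enzymes and for 23 of all 52 members (44.2%), beside 16.4% of all genes tested. Subclones 6 and 8 held the 2 highest values for 16 members (30.8%, beside 12.5% of all genes), of which 8 were sterol enzymes. Sqle had 115.73 and 123.16 TPM in subclones 6 and 8, and Cyp51 had 95.17 and 98.58 TPM there. Insig2, Srebf1, Srebf2, Scd1, Scd2 and Acadl were also among the 16. The 2 subclones were lowest for Cpt1a, with 7.67 TPM in subclone 6 and 8.16 TPM in subclone 8, and for Hadha, which makes 2 members (3.85%, beside 13.7% of all genes). These counts are descriptions and were not tested. Subclones 6 and 8 also stood apart in Pdgfra, on the fibroblast list, with 54.14 and 92.82 TPM against 0.90 to 5.61 TPM in the other subclones and 0.18 TPM in the library labelled 3H3P. The 6 fibroblast markers summed to 1.01 to 99.36 TPM in the subclones and 105.96 TPM in the library labelled 3H3P, where Dcn made up 105.5 TPM, and 1 of the 6 was at 0 in all 8 libraries. The part of these markers in the lipid gene pattern was not tested. With both subclones left out, an analysis chosen after seeing the data, 4 members were called higher and 7 lower. Dgat1 and Dgat2 then passed as lower (adjusted p = 0.0227 and 0.0180 by edgeR's quasi-likelihood test). Elovl6 passed as higher (adjusted p = 0.0186), and Acss2 no longer passed (adjusted p = 0.0585).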

How the data were processed

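RNA-seq libraries of 7 3H3PM subclones and 1 library labelled 3H3P were analysed. Per the labels' protocols, RNA was taken with TRIzol and the kit was directional. The submitters' processing notes name FastQC, STAR, RSEM, DESeq2 and GRCm38 (mm10), with no versions or options. The deposited expected count comes from RSEM, where a read matching several genes is shared among them. Fractional values were found for 3099 to 3459 genes in each library. The deposited TPM value is scaled by transcript length and to an equal sum in each library; TPM gives the levels in the text and 2 alternatives. The deposited effective lengths were not tested, and the deposited transcript length is described for Acss2.

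After rounding, filterByExpr (by group) and TMM scaling, expected counts went into edgeR's quasi-likelihood F test (glmQLFit, glmQLFTest; version 4.0.16 in R 4.3.3), with Benjamini-Hochberg adjustment over 14634 genes and a threshold of 0.05. All 8 libraries entered the fit, with 6 residual degrees of freedom, all from the subclones. The standard error is the log2 fold change divided by the square root of F. CPM values are TMM-scaled. For Lpl, with 0 counts in the subclones, the fold was computed against 3 counts over the whole group. Intervals and floors cover counting error only.

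The members and lists were chosen with earlier results of these data known. Levels are given for called members and, for each role, the gene of highest mean TPM and that of smallest p; of the other pathway genes, for up to 2 called in each direction per list. Some of these genes are not reported here. Alternatives were DESeq2 1.42.0, limma 3.58.1 (voom, log2(TPM + 1) and log2(TPM + 0.1)), RLE scaling, library size alone, no filter, a filter of mean CPM of at least 1, and leaving out each subclone. The edgeR test was tried on simulated counts with known changes, drawn with the fitted spread. It called 4 of 50 genes with a simulated 2-fold change (8.0%) and 35 of 50 with a 4-fold change (70.0%). Of 13564 unchanged genes it called 6. A gene that was not called can therefore still differ, above all at small folds. Positions come from GENCODE vM21 on GRCm38: 45 members matched by versioned identifier and 7 by identifier with another version. Promoter windows come from RefSeq on GRCm38.p6.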

Additional observations from a re-analysis of the deposited data

Results flagged for a closer look

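Over 60 sets of 7 subclone values, 51 genes and 9 summed levels, 5 had a subclone far from the rest by Dixon's test, where chance flags about 1 in 20. Hsd17b7 had 2.84 TPM in subclone 2, and the nearest other subclone had 5.62 TPM. Cd36 had 0.16 TPM in subclone 2 and 0 in the other subclones, where any count at all gives the highest ratio the test allows, so this case says nothing of a deviation. Gpam had 20.65 TPM in subclone 7, and the nearest other subclone had 16.65 TPM. Dgat1 had 42.12 TPM in subclone 8, and the nearest other subclone had 27.64 TPM. The summed level of the triglyceride and droplet genes was 193.15 TPM in subclone 8, and the nearest other subclone had 162.72 TPM.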

How the results depend on the processing

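Of the 9 calls, those of Pmvk, Plin2, Cpt1a, Acadl and Elovl5 held in all 16 alternatives. Lpl held in the 15 that tested it. DESeq2 called 8 members higher, against 4 in the main analysis, and 7 lower, against 5. Over all genes DESeq2 called 1689 higher, against 1072. Leaving out each subclone in turn gave 1 to 5 members higher and 5 to 7 lower, with the fewest without subclone 3, where Pmvk was the 1 called higher. Over all genes it gave 669 to 1185 higher and 1322 to 1800 lower, against 1727 lower, again with the fewest without subclone 3. Other pathway genes called higher numbered 2, against 5 with library size alone, 4 with DESeq2 and 1 to 3 with a subclone left out. Those called lower numbered 15, against 9 with log2(TPM + 0.1) and 8 to 17 with a subclone left out, with 8 without subclone 3 and 10 without subclone 6. The median SD over the members ran from 0.266 to 0.318 with a subclone left out. The cause of these shifts was not tested.

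Over members and alternatives, 775 fitted changes kept their direction and side of the threshold, 26 gained a call, 11 lost one, and 14 changed sign; none of the 14 was called. Without subclones 6 and 8, Sqle came to −0.225, Dhcr7 to −0.0136 and Srebf1 to −0.0937 on the log2 scale. Sqle came to −0.0142 with limma-voom, Fads2 to 0.0104 with library size alone, and Lipe to 0.0596 with log2(TPM + 1) and 0.0631 with log2(TPM + 0.1). With a subclone left out, Acat2 ran from −0.0332 to 0.0597, Sqle from −0.0361 to 0.217, Srebf1 from −0.0274 to 0.0998, Insig2 from −0.364 to 0.00112 and Fads2 from −0.1003 to 0.000787. DESeq2 gave no adjusted p for 285 genes.

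No paired analysis was possible because 3H3P had 1 library, with no replicate number. With 1 library of 3H3P, its own spread is unknown, and adjusted p-values assume that of the subclones. Cd36, Cideb and Mlxipl rest on few counts at this depth.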
